A study of Rattus norvegicus with 82 samples.

Results

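The 10 genes described here encode chemokines: the CC ligands Ccl2, Ccl3, Ccl4, Ccl7, Ccl20 and Ccl27, the CXC ligands Cxcl1, Cxcl2 and Cxcl12, and the CX3C ligand Cx3cl1. They were picked by gene symbol from the 17337 genes of the count table, in which all 10 were present, and all 10 passed the filter on low counts. Cardiomyocytes of 41 rats were isolated by collagenase digestion and centrifugation, separately for the left (LV) and right (RV) ventricles, and their RNA was sequenced after removal of ribosomal RNA. This gave 82 libraries in 12 groups, with between 6675287 and 19665439 counts per library. Pulmonary artery banding (PAB) loads the RV and aortic banding (AOB) loads the LV, through clips that did not constrict the vessel when they were placed, and the design asks which genes respond in the loaded ventricle, in the other ventricle and with age.

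All rats were F1 offspring of Wistar Kyoto females and Lewis males, and each condition held both sexes. At the compensated stage, 7 weeks after surgery and at a labelled age of 11 weeks, there were 7 sham-operated animals (Sham-H), 6 with AOB (AOB-H) and 6 with PAB (PAB-H). At the failure stage there were 9 sham-operated animals (Sham-F) and 7 with AOB (AOB-F), both 26 weeks after surgery and labelled as 31 weeks old, and 6 with PAB (PAB-F), 22 weeks after surgery and labelled as 28 weeks old. PAB-F animals were therefore younger than their sham group, and the ages in the labels and in the study's text do not coincide. Each animal gave 1 RV and 1 LV library. Summed markers of ventricular cardiomyocytes, such as Myh6 and Tnnt2, took 5.54 to 12.4% of a library's counts, against 0.0643 to 0.529% for endothelial cells, 0.0153 to 0.303% for fibroblasts and 0.00197 to 0.0552% for macrophages.

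Chemokines are small secreted proteins that bind G protein-coupled receptors on leukocytes and draw them along a gradient. Inflammatory chemokines are induced by cytokines and by microbial or damage signals, largely through NF-kappaB, whereas homeostatic ones such as Cxcl12 are made without a stimulus and steer resting cells and vessel growth. In the heart they are known from resident macrophages, endothelial cells and fibroblasts as well as from stressed cardiomyocytes.

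Promoter sequences were at hand for 7 of the 10 genes, and 6 of them are shown: the 4 that hold a match to an NF-kappaB motif (Ccl7, Ccl20, Cxcl1 and Cxcl2) and, for contrast, Ccl27 and Cxcl12, which hold none in this window. Each line gives the 150 bases before the annotated start on the gene's strand, from RefSeq on GRCr8, which is a later build than the Rnor6.0 of the counts. Capitals mark matches, on either strand, to the NF-kappaB consensus decamer, and overlapping matches run together.
Ccl7 (GRCr8 chr10:67513945-67514094, plus strand): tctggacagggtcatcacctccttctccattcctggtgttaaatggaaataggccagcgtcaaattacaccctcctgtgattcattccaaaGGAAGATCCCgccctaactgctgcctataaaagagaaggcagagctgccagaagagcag
Ccl20 (GRCr8 chr9:91837009-91837158, plus strand): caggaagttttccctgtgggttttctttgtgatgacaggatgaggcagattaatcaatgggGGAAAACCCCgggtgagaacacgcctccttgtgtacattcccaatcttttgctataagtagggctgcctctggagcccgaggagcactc
Cxcl1 (GRCr8 chr14:17479322-17479471, minus strand): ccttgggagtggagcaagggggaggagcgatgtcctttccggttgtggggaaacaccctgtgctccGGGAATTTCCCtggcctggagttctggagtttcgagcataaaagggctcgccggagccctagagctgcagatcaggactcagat
Cxcl2 (GRCr8 chr14:17467256-17467405, minus strand): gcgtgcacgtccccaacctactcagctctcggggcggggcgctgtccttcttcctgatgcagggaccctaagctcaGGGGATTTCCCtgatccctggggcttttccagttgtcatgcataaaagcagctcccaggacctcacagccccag
Ccl27 (GRCr8 chr5:61741780-61741929, minus strand): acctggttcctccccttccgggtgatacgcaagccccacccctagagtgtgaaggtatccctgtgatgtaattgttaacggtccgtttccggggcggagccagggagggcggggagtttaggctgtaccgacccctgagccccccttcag
Cxcl12 (GRCr8 chr4:152060631-152060780, plus strand): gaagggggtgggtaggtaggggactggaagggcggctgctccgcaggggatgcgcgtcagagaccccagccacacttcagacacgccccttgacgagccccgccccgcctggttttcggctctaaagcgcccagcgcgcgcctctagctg

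In the 250 bases before the start, the decamer was found in 4 of the 7 promoters (Ccl7, Ccl20, Cxcl1 and Cxcl2) and in 6.33% of the 33469 promoters of the table. The first match began 59 bases before the start in Ccl7, 89 in Ccl20, 84 in Cxcl1 and 74 in Cxcl2. The AP-1 motif TGANTCA was present only in Ccl7, 73 bases before the start, and in 6.34% of all promoters. The TATA box letters TATAAA were present in Ccl7, 34 bases before the start, in Cx3cl1, 78 bases before it, and in 12.9% of all promoters. Only these exact letters were searched, so a promoter without them may hold a near form. These are matches of letters in 1 window, searched on both strands and without any measurement of binding.

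Per length of transcript, in the authors' FPKM, Cxcl12 had the highest level of the 10 genes and Ccl20 the lowest in healthy adult LV cardiomyocytes. In LV Sham-F, Cxcl12 lay between 46.9 and 110.3 FPKM (median 69.6), above every library of the other 9 genes. Cx3cl1 (12.1 to 35.97, median 23.4) and Cxcl1 (11.3 to 30.5, median 16.8) followed with ranges that overlapped each other. Ccl4 (median 10.4), Ccl2 (median 7.68), Cxcl2 (median 3.64), Ccl7 (median 3.53), Ccl3 (median 2.12) and Ccl27 (median 1.98) came next, each overlapping its neighbour in this order. Ccl20 stood at 0.0774 to 0.788 FPKM (median 0.345), and in the 78 libraries outside AOB-F animals 6 and 7 it had a median of 3 raw counts, at most 25, and 0 counts in 11 libraries.

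**Figure D1:**
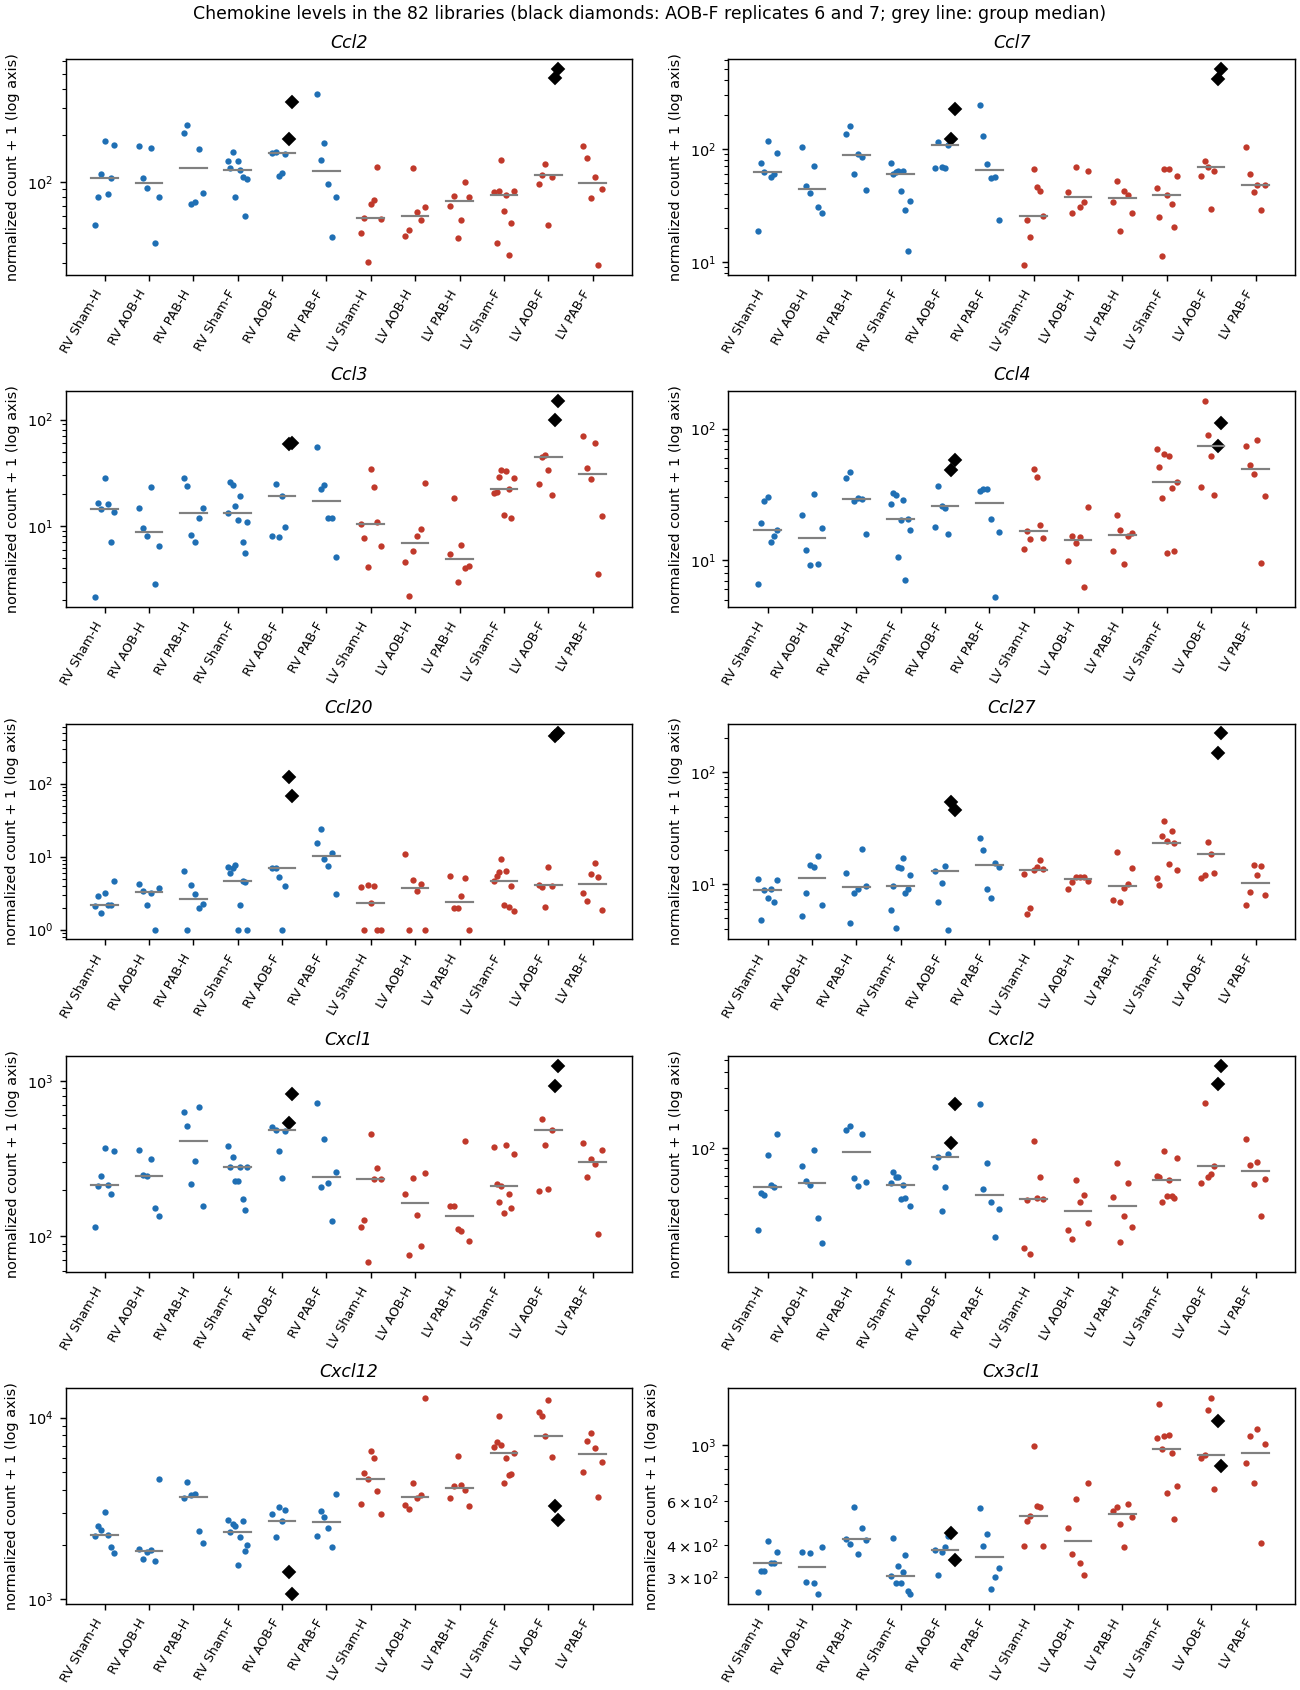
Normalized count plus 1 (log axis) of each chemokine in the 82 libraries, by group, RV in blue and LV in red, with a grey line at the group median. Black diamonds are the libraries of AOB-F animals 6 and 7, which hold the highest values of Ccl2, Ccl3, Ccl7, Ccl20, Ccl27, Cxcl1 and Cxcl2 in the LV; Cxcl12 and Cx3cl1 sit lower in the RV groups than in the LV groups.

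Inflammatory ligands were higher in the failing LV upon AOB, with their highest values in 2 of the 7 animals. Between LV AOB-F and LV Sham-F, 7 of the 10 chemokines rose (Ccl2, Ccl3, Ccl7, Ccl20, Ccl27, Cxcl1 and Cxcl2) and none fell, where 12.9% of all 11954 tested genes were called, 8.54% as higher. The median log2 fold change of the 10 was 1.45, against 0.04 over all genes. With AOB-F animals 6 and 7 left out, 0 of the 9 genes still tested were called by edgeR (2 had an unadjusted p under 0.05, Ccl4 and Cxcl12), the median was 0.56, and the share of all genes called was 2.87%. An unadjusted p under 0.05 was then found for 2478 of all 11988 genes, so that 2 of 9 lies near the background. The study's criteria, applied here to the edgeR values rather than to its own DESeq2 fit, also picked 7 of the 10 with all libraries. They picked 1.21% of all genes. When only these 2 groups entered the fit, 0 of the 10 were called, and 15 genes in all; without animal 7 alone Ccl2 and Ccl7 were still called. Ccl2, Ccl7, Ccl20, Ccl27 and Cxcl2 are among genes that the study selected on these same LV libraries, so their direction is not independent evidence. Values below are normalized counts, that is raw counts scaled by TMM to a common library size, and tests are edgeR's quasi-likelihood F test with Benjamini-Hochberg adjustment over all tested genes.

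The monocyte attractants Ccl2 and Ccl7, ligands of the receptor Ccr2 whose genes lie next to each other, were high in the same libraries. Ccl2 read 95.5, 109.7, 128.8, 51.6 and 106.8 in LV AOB-F animals 1 to 5 and 467.7 and 536.0 in animals 6 and 7, against 32.6 to 137.8 in LV Sham-F (median 81.1, n = 9). Only the last pair lay above every sham library, and the groups overlapped. The log2 fold change of Ccl2 was 1.53 ± 0.36 (SE; adjusted p = 0.00306), and 0.41 ± 0.35 (adjusted p = 0.526) without animals 6 and 7. Ccl7 read 57.1, 77.1, 68.03, 28.5 and 63.1 in animals 1 to 5 and 410.3 and 504.0 in animals 6 and 7, against 10.3 to 65.2 in LV Sham-F (median 38.1). Of the 7 AOB-F libraries 4 (animals 2, 3, 6 and 7) exceeded all sham libraries. Its log2 fold change was 2.12 ± 0.42 (adjusted p = 0.000643), and 0.57 ± 0.39 (adjusted p = 0.427) without those animals.

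Ccl3 and Ccl4, neighbouring genes for attractants of monocytes and T cells, differed from each other in which library was highest. Ccl3 read 23.9, 43.7, 45.4, 32.3 and 18.5 in animals 1 to 5 and 97.5 and 147.9 in animals 6 and 7, against 10.8 to 32.6 in LV Sham-F (median 21.4). Its log2 fold change was 1.37 ± 0.47 (adjusted p = 0.0429), and 0.54 ± 0.49 (adjusted p = 0.561) without animals 6 and 7. The call of Ccl3 was also lost when 1 of 7 of the 9 sham animals was left out. Ccl4 read 35.3, 160.8, 88.7, 60.8 and 30.1 in animals 1 to 5 and 72.9 and 109.3 in animals 6 and 7, against 10.4 to 69.3 (median 38.5). Its highest library was that of animal 2, and 4 of 7 lay above every sham library. Ccl4 missed the threshold with all libraries (log2 fold change 0.96 ± 0.36, adjusted p = 0.0625) and kept most of its size without animals 6 and 7 (0.88 ± 0.39, adjusted p = 0.179).

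Ccl20, the ligand of Ccr6 that attracts dendritic cells and T helper 17 cells, had the largest change and the sharpest split between animals. In LV AOB-F it read 3.11, 2.79, 1.03, 6.16 and 2.91 in animals 1 to 5, which is the level of the shams (0.819 to 8.38, median 3.69). Animals 6 and 7 read 442.3 and 487.9, from 540 and 518 raw counts. In the RV of the same animals it read 120.8 and 66.98, and no other library of the 82 exceeded 22.9. The log2 fold change was 5.16 ± 0.79 (adjusted p = 1.46e-05) with all libraries, and without animals 6 and 7 the gene fell below the filter on low counts, with a mean of 3.201 ± 1.85 (SD, n = 5) in AOB-F against 3.65 ± 2.49 (n = 9) in Sham-F. Ccr6 itself had at most 1.64 in LV AOB-F.

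Ccl27, known as a skin chemokine that binds Ccr10, followed the same split. It read 10.4, 11.2, 22.7, 17.7 and 11.7 in animals 1 to 5 and 145.8 and 219.5 in animals 6 and 7, against 8.77 to 35.4 in LV Sham-F (median 22.5). The log2 fold change was 1.64 ± 0.42 (adjusted p = 0.00613), and it turned to -0.43 ± 0.34 (adjusted p = 0.494) without those animals. In the GRCr8 annotation Ccl27 overlaps Il11ra1 and LOC102547621, and Ccl3 overlaps LOC103693406. The study counted with multiple overlaps disabled, but the strand setting is not stated. Which reads on bases shared by Ccl27 and Il11ra1 were kept is therefore not known. Il11ra1 read 1540 and 1465 in animals 6 and 7, below the 1658 to 3293 of LV Sham-F.

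Cxcl1 and Cxcl2, neighbouring genes for ligands of Cxcr2 that attract neutrophils, exceeded the shams in more animals than Ccl20 did. Cxcl1 read 196.1, 563.1, 383.4, 201.7 and 478.8 in animals 1 to 5 and 925.5 and 1251 in animals 6 and 7, against 140.8 to 384.9 in LV Sham-F (median 209.4). Animals 2 and 5 also exceeded every sham library. The log2 fold change was 1.24 ± 0.34 (adjusted p = 0.0107), and 0.60 ± 0.35 (adjusted p = 0.338) without animals 6 and 7. Cxcl2 read 51.9, 226.7, 57.7, 60.8 and 70.9 in animals 1 to 5 and 319.4 and 449.3 in animals 6 and 7, against 36.1 to 93.1 in LV Sham-F (median 54.4). Its log2 fold change was 1.66 ± 0.41 (adjusted p = 0.00508), and 0.74 ± 0.42 (adjusted p = 0.305) without them.

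The homeostatic Cxcl12, ligand of Cxcr4 and of the scavenging receptor Ackr3, went the other way in animals 6 and 7. It read 10749, 10257, 7902, 12448 and 6057 in animals 1 to 5 but 3277 and 2719 in animals 6 and 7, below every LV Sham-F library (4345 to 10244, median 6402). The log2 fold change was 0.24 ± 0.24 (adjusted p = 0.531), and 0.56 ± 0.23 (adjusted p = 0.141) without those animals. Cx3cl1, a membrane-bound chemokine of endothelium that binds Cx3cr1, read 667.2 to 1533 in LV AOB-F and 504.8 to 1454 in LV Sham-F. Animals 6 and 7 lay inside that range at 1243 and 821.4, and its log2 fold change was 0.18 ± 0.18 (adjusted p = 0.512). For none of the 10 genes did the LV AOB-F and LV Sham-F libraries fail to overlap, as they failed to in 0.0837% of tested genes.

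**Figure D2:**
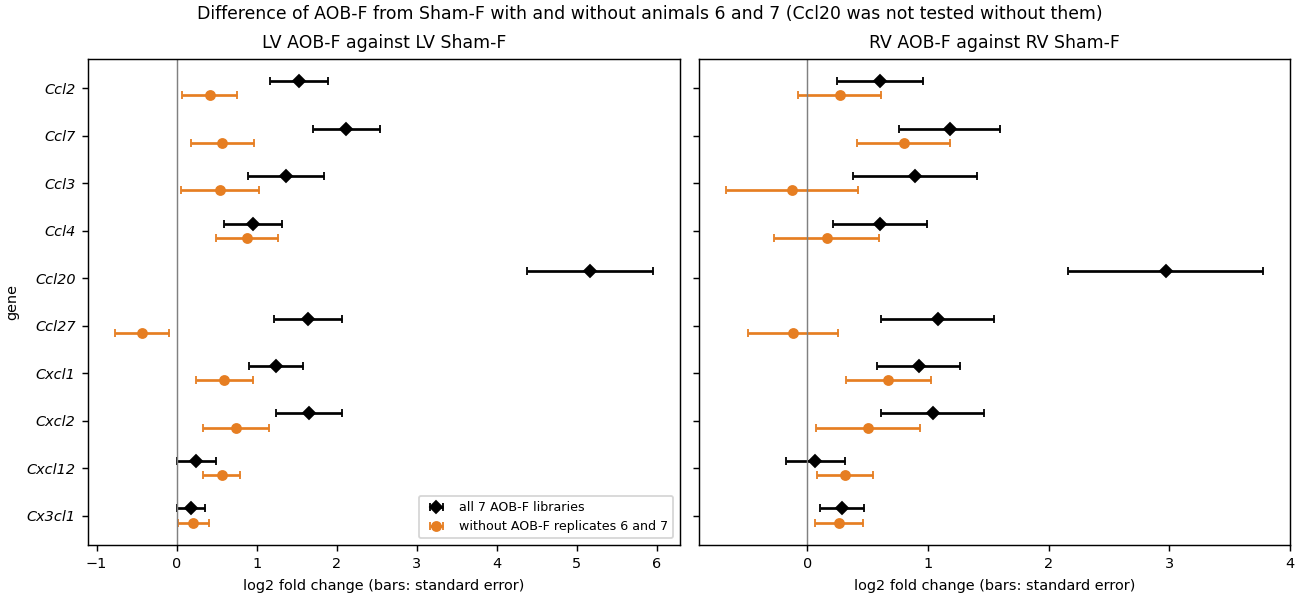
Log2 fold change of each chemokine between AOB-F and Sham-F (bars, standard error) in the LV (left) and the RV (right), with all 7 AOB-F animals (black) and without animals 6 and 7 (orange). In the LV, Ccl20 falls from 5.16 to not tested and Ccl27 from 1.64 to -0.43, while Ccl4 moves from 0.96 to 0.88.

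Animals 6 and 7 stood apart in both ventricles. Both were female, and the third AOB-F female (animal 5) read like the males for Ccl20 and Ccl27. For Cxcl1, animal 5 and the male animal 2 also lay above every LV Sham-F library in the LV. The part of sex was not tested. Their LV libraries ranked first and second of 82 for Ccl2, Ccl3, Ccl7, Ccl20, Ccl27, Cxcl1 and Cxcl2, and their RV libraries were the 2 lowest of 82 for Cxcl12, at 1413 and 1068. In the LV, macrophage markers (8 genes) took 0.0473 and 0.0552% of their counts, against 0.00625 to 0.0306% in animals 1 to 5. Neutrophil markers (6 genes, none at 0 in these 2 libraries) took 0.0313 and 0.0228%, against 0.000769 to 0.0025%, with up to 4 of the 6 genes at 0. Ventricular cardiomyocyte markers took 5.54 and 5.89%, against 7.92 to 9.62%, while T and NK cell markers were at 0.000215 and 0.000206%, below the 0.00024 to 0.000729% of the others. These shares moved with the chemokine values. Endothelial markers took 0.195 to 0.412% of counts over all LV AOB-F libraries, and 0.217 to 0.412% without animals 6 and 7. Schwann cell markers took 0.000826 to 0.00285%, and 0.00189 to 0.00285% without them. Red blood cell markers took 0.00129 to 0.00946%, and 0.00475 to 0.00946% without them. The part of any of these marker shares in the chemokine values, Cxcl12 included, was not tested. In such bulk samples fewer cells of a type and less RNA per cell cannot be told apart.

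**Figure D3:**
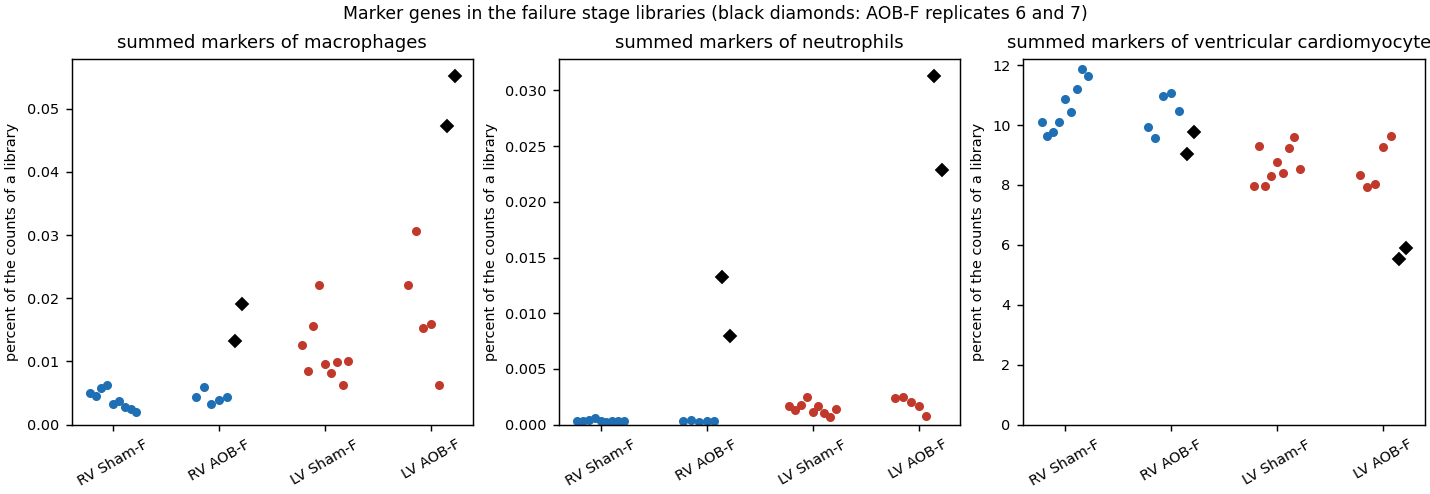
Summed counts of macrophage, neutrophil and ventricular cardiomyocyte markers as a percent of all counts of a library, in the failure stage sham and AOB libraries of both ventricles. AOB-F animals 6 and 7 (black diamonds) are the highest in the first 2 panels within each ventricle and the lowest of the LV libraries in the third.

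In the unloaded RV of the same AOB-F animals the chemokines leaned the same way without passing the adjusted threshold. Of the 10 genes 0 were called by edgeR (and 0 by DESeq2), where 0.0669% of all genes were, while 5 had an unadjusted p under 0.05. Ccl20 read 6.00, 5.97, 4.25, 0 and 2.94 in animals 1 to 5 and 120.8 and 66.98 in animals 6 and 7, against 0 to 6.69 in RV Sham-F (log2 fold change 2.97 ± 0.81, adjusted p = 0.245). Ccl7 read 66.02 to 224.5 (median 106.0), against 11.5 to 73.3 (median 58.7), a log2 fold change of 1.18 ± 0.42 (adjusted p = 0.716) that was 0.80 ± 0.39 without animals 6 and 7. Cxcl1 exceeded every RV Sham-F library in 5 of 7 animals, at 237.7 to 822.6 against 147.1 to 378.8 (log2 fold change 0.92 ± 0.34, adjusted p = 0.775). Without animals 6 and 7 the log2 fold change of Ccl27 went from 1.08 to -0.12 and that of Ccl3 from 0.89 to -0.13, neither of them called, where 0.00834% of all genes were. The study's criteria picked 1 of the 10, Ccl7, where they picked 0.259% of all genes. The LV response minus the RV response was called for none of the 10, nor for any gene by edgeR (none of the 10 had an unadjusted p under 0.05, and DESeq2 called 5 genes, none of them a member), and was largest for Ccl20 at 2.19 ± 1.18 (adjusted p = 0.538). Without animals 6 and 7 Ccl20 was not tested, 0 of the other 9 were called and none had an unadjusted p under 0.05, where 819 of all 11988 genes had. The largest difference was then that of Ccl4 at 0.71 ± 0.59, and the median of the members went from 0.52 (9 of 10 positive) to 0.14 (5 of 9 positive).

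Among other chemokines and inflammatory genes, read from lists, some rose in LV AOB-F as well, where 8.54% of all genes were called higher. Of 16 other chemokine ligands tested, 5 were called higher. These were Cxcl11 (log2 fold change 1.19), a Cxcr3 ligand, the eosinophil attractant Ccl11 (2.76), Ccl12 (1.63), Ccl9 (1.88) and Ccl6 (1.002). Of 23 NF-kappaB and inflammatory genes 13 rose, led by the adhesion molecules Selp (3.504 ± 0.53, adjusted p = 1.46e-05) and Sele (2.53 ± 0.43, adjusted p = 7.06e-05), Tlr2 (2.11), the NF-kappaB subunit gene Nfkb1 (0.20), Il1b (1.78) and Birc3 (1.06). Selp read 12.5 to 51.1 in animals 1 to 5 and 381.7 and 508.7 in animals 6 and 7, and Cxcl11 103.1 to 188.8 against 844.4 and 747.0. Without those animals 0 of the 15 ligands and 0 of the 23 inflammatory genes were called by edgeR, where 2.87% of all genes were. At that share a count of 0 says little about either list. The median log2 fold change went from 0.55 to 0.28 for the ligands and from 0.64 to 0.33 for the inflammatory genes.

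Among the receptors, 1 of 7 tested rose in LV AOB-F: Ccr1, a receptor of Ccl3 and Ccl7, which read 5.58 to 13.5 in animals 1 to 5 and 52.4 and 69.7 in animals 6 and 7 (log2 fold change 1.98 ± 0.55, adjusted p = 0.0119; 0.44 without them). A count of 1 of 7 lies near the 12.9% of all genes called in this comparison. Cxcr4 averaged 753.8 in LV AOB-F and 695.4 in LV Sham-F (log2 fold change 0.12, adjusted p = 0.803). Ackr3 differed by -0.06 (adjusted p = 0.865), Ccr10 by -0.36 (adjusted p = 0.186) and Cx3cr1 by 1.49 (adjusted p = 0.0872). Cxcr2, the receptor of Cxcl1 and Cxcl2, read 11.3 in LV animal 7 and at most 1.64 in the other LV AOB-F libraries, and it did not pass the filter.

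After PAB and at the compensated stage none of the 10 chemokines passed the threshold. In RV PAB-F, the failing loaded RV, 0 of 10 were called by edgeR (and 0 by DESeq2), where 11.1% of all genes were. Ccl7 alone had an unadjusted p under 0.05 there, with 22.7 to 242.2 (median 63.9) against 11.5 to 73.3 in RV Sham-F, a log2 fold change of 0.99 ± 0.44 (adjusted p = 0.128). Of all 11954 genes 3332 had an unadjusted p under 0.05 in RV PAB-F, so 1 of 10 lies below the background. Ccl20 read 2.06 to 22.9 (median 9.13) against 0 to 6.69, above every sham library in 4 of 6 animals, with a log2 fold change of 1.52 ± 0.90 (adjusted p = 0.262). Other ligands did rise in RV PAB-F, namely Ccl11 (4.24 ± 0.71, adjusted p = 1.83e-05), Ccl12 (2.40) and Cxcl16 (0.93), 3 of the 16 tested. Cxcr4 rose as well, from a mean of 133.3 to 311.9 (log2 fold change 1.22 ± 0.28, adjusted p = 0.00188), while its ligand Cxcl12 differed by 0.26 ± 0.26 (adjusted p = 0.532). Markers of other cell types moved with RV PAB-F as well, with 5 of 9 fibroblast, 3 of 8 macrophage and 2 of 7 endothelial markers called higher. Fibroblast markers took 0.0277 to 0.1997% of counts against 0.0153 to 0.0509% in RV Sham-F, macrophage markers 0.00296 to 0.0278% against 0.00197 to 0.00628%, and endothelial markers 0.0880 to 0.2006% against 0.0643 to 0.109%. Their part in these rises was not tested.

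In RV PAB-H all 10 log2 fold changes were positive, between 0.18 (Ccl3) and 0.80 (Ccl4), and 0 were called by edgeR and by DESeq2 (1 with an unadjusted p under 0.05, Cxcl1), where 4.5% of all genes were. Of all 11954 genes 2462 had an unadjusted p under 0.05 in RV PAB-H, so 1 of 10 lies below the background. Cxcl1 read 155.6 to 676.1 (median 406.9) against 113.8 to 367.7 (median 213.1) in RV Sham-H. Fitted on these groups alone, Cxcl12 and Cx3cl1 were called there, and with a replicate number block Cxcl12 was. Fibroblast markers moved with RV PAB-H, at 0.0360 to 0.303% of counts against 0.0242 to 0.0465% in RV Sham-H, with 9 of 9 tested markers called higher. Endothelial markers took 0.0887 to 0.226% against 0.0755 to 0.109% (1 of 7 called higher), and the part of either was not tested. In RV AOB-H, LV AOB-H, LV PAB-H and LV PAB-F, 0 of 10 were called by edgeR and 0 by DESeq2, where 0, 0.0167, 0 and 0% of all genes were. The only unadjusted p under 0.05 among these 4 comparisons was that of Ccl27 in LV PAB-F, with means of 9.77 and 20.1 (log2 fold change -1.01 ± 0.49, adjusted p = 0.9997).

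The LV AOB-F response minus the RV PAB-F response was called for 0 of 10 chemokines, where 3.15% of all genes were. Ccl20 came nearest at 3.64 ± 1.25 (adjusted p = 0.0809) and was called when AOB-F animal 3 or 4 was left out. Without animals 6 and 7 it was not tested and 0 of the other 9 were called, where 1.18% of all genes were. The RV response to PAB-F minus that of the LV was called for 0 of 10 as well, where 0.351% of all genes were, with an unadjusted p under 0.05 for Ccl27 (1.61 ± 0.70, adjusted p = 0.331). Of all 11954 genes 1538 had an unadjusted p under 0.05 for this difference, so 1 of 10 lies near the background.

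Cxcl12 and Cx3cl1 differed between the ventricles of healthy hearts. In Sham-F, 4 of 10 chemokines were lower in the RV (Ccl4, Ccl27, Cxcl12 and Cx3cl1) and none higher, where 74.3% of all genes were called, 38.6% as lower. In Sham-H, 2 were lower (Cxcl12 and Cx3cl1), where 21% of all genes were called, 11.4% as lower. In Sham-F the 4 of 10 called lie below the background of 74.3% in either direction and near that of lower genes, and in Sham-H the 2 of 10 lie near the background of 21%. With the animal as a block, Ccl2 (higher) and Ccl3 (lower) were added in Sham-F and Ccl7 (higher) in Sham-H. The study's criteria picked 2 of 10 in Sham-F (Cxcl12 and Cx3cl1), where they picked 27.7% of all genes, and 0 of 10 in Sham-H, where they picked 2.83%.

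Cxcl12 read 1550 to 2736 in RV Sham-F (median 2348) and 4345 to 10244 in LV Sham-F (median 6402), with no overlap. The log2 fold change was -1.50 ± 0.23 (adjusted p = 3.43e-08), and -0.99 ± 0.26 (adjusted p = 0.00581) in Sham-H, at 1792 to 3014 against 2938 to 6548. Cx3cl1 read 254.9 to 425.7 in RV Sham-F and 504.8 to 1454 in LV Sham-F, again apart, with a log2 fold change of -1.58 ± 0.17 (adjusted p = 7.68e-13). In Sham-H it read 259.2 to 415.6 against 395.0 to 985.0 (-0.74 ± 0.19, adjusted p = 0.00503). Libraries without overlap were found for these 2 members in Sham-F, where 41.8% of all genes had none, and for 0 in Sham-H, where 4.59% had none. Over all conditions, sham and banded, each of the 2 genes was lower in the RV of the same animal in 40 of 41 animals. Ccl2 was higher in the RV in 31 of 41. The share of all genes with such counts was not computed.

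Ccl4 read 6.09 to 31.2 in RV Sham-F (median 19.5) and 10.4 to 69.3 in LV Sham-F (median 38.5), a log2 fold change of -0.99 ± 0.36 (adjusted p = 0.0116). Ccl27 read 3.05 to 16.02 (median 8.74) against 8.77 to 35.4 (median 22.5), a log2 fold change of -1.07 ± 0.44 (adjusted p = 0.026). Cxcr4 was lower in the RV too, with means of 133.3 and 695.4 in Sham-F (log2 fold change -2.38 ± 0.26) and of 127.3 and 352.7 in Sham-H (-1.47 ± 0.29).

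Markers of other cell types moved with the ventricle. Endothelial markers took 0.0643 to 0.109% of counts in RV Sham-F and 0.197 to 0.359% in LV Sham-F, and 0.0755 to 0.109% against 0.109 to 0.295% in Sham-H, with none of the 7 markers at 0. Ventricular cardiomyocyte markers took 9.62 to 11.9% in RV Sham-F and 7.97 to 9.61% in LV Sham-F. Singly, 4 of these 9 markers were called higher in the RV and 2 lower, with a median log2 fold change of 0.016. Macrophage markers took 0.00197 to 0.00628% in RV Sham-F and 0.00619 to 0.0221% in LV Sham-F, and fibroblast markers 0.0153 to 0.0509% and 0.0399 to 0.124%. Called lower in RV Sham-F were 6 of 7 endothelial, 4 of 8 macrophage, 6 of 9 fibroblast and 4 of 7 mural cell markers. Of the mural markers 1 was called higher. Of all genes 38.6% were called lower there, and 74.3% in either direction. The part of the marker shares in the chemokine differences was not tested.

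**Figure D4:**
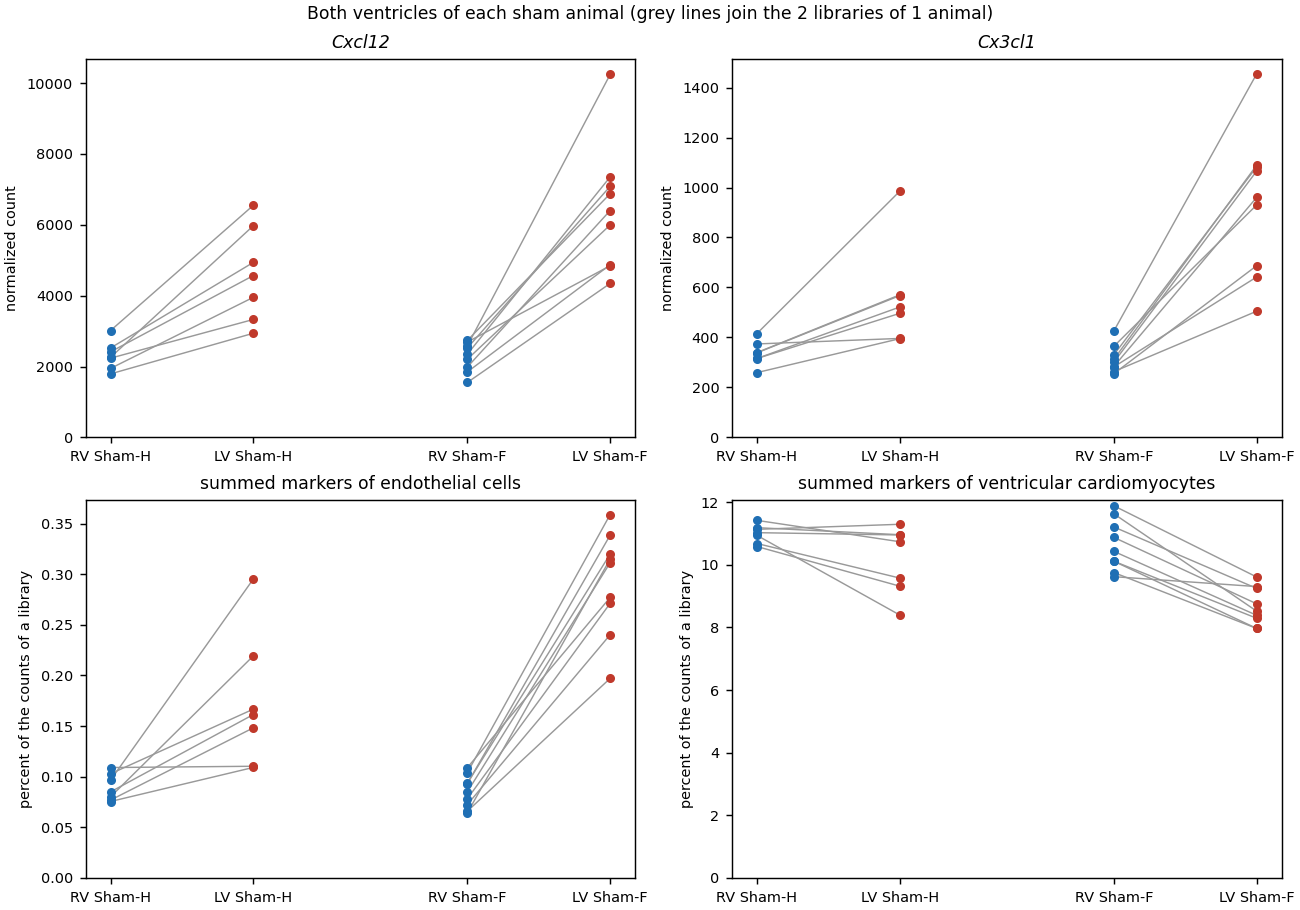
Normalized counts of Cxcl12 and Cx3cl1 (top) and summed endothelial and ventricular cardiomyocyte markers as a percent of counts (bottom) in the RV (blue) and LV (red) library of each sham animal, joined by grey lines. Both genes and the summed endothelial markers are lower in the RV of all 9 Sham-F animals, while the summed cardiomyocyte markers are higher there.

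With age, 1 of 10 chemokines changed in the LV: Cx3cl1 rose from 395.0 to 985.0 (median 521.6) in LV Sham-H to 504.8 to 1454 (median 960.2) in LV Sham-F, a log2 fold change of 0.73 ± 0.18 (adjusted p = 0.000454), where 57.4% of all genes were called, 27.8% as higher. Endothelial markers moved with it, from 0.109 to 0.295% of counts in LV Sham-H to 0.197 to 0.359% in LV Sham-F, with 3 of 7 called higher, as were 5 of 8 macrophage, 4 of 9 fibroblast and 4 of 7 mural cell markers (1 mural marker fell). The part of these markers was not tested. Without Sham-H animal 4, whose LV held the highest Cx3cl1 of its group, Ccl3, Ccl4 and Cxcl12 were called higher too. The study's criteria picked 0 of 10, where they picked 8.05% of all genes. In the RV 0 of 10 were called by edgeR (and 0 by DESeq2) with age, none with an unadjusted p under 0.05, where 0.0502% of all genes were called. LV Sham-F libraries differed from LV Sham-H at far more genes than the RV libraries of the same animals did, and no batch is labelled for them.

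Across the 12 group means, given as a description over means that share libraries with the results above, several members tracked each other, whether their genes are neighbours or not. Pearson's r of log2 CPM was 0.94 between Ccl2 and Ccl7, 0.95 between Ccl3 and Ccl4, 0.94 between Cxcl1 and Cxcl2 and 0.95 between Cxcl12 and Cx3cl1. It was 0.92 between Ccl2 and Cxcl1, 0.89 between Ccl7 and Cxcl1 and 0.86 between Ccl4 and Cxcl2. With AOB-F animals 6 and 7 left out, these were 0.84, 0.81 and 0.78, and the pairs before them 0.90, 0.92, 0.88 and 0.97. Other pairs were near 0 or negative with all libraries, such as Ccl7 with Cx3cl1 (-0.03) and Ccl2 with Cxcl12 (-0.38). Of all genes tested, the most alike was Tifa for Ccl2 (r = 0.94), Has2 for Ccl7 (0.95), Pik3r5 for Ccl3 (0.98), Fst for Ccl4 (0.98), Reg3b for Ccl20 (0.96), St14 for Ccl27 (0.92), Tlr2 for Cxcl1 (0.94) and Rbm47 for Cxcl2 (0.94). For Cxcl12 it was Xpnpep2 (0.99) and for Cx3cl1 Ajuba (0.99). Without AOB-F animals 6 and 7 these fell to 0.86 for Ccl20 with Reg3b and 0.78 for Ccl27 with St14, while Cxcl12 with Xpnpep2 stayed at 0.99. Each most alike gene is the highest of all genes tested over 12 means. How high such a maximum runs for other genes was not computed. The member pairs with high r were picked by their r, and r between pairs of other genes over these means was not computed either.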

How the data were processed

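RNA of cardiomyocytes from each ventricle of 41 rats was sequenced (82 libraries, 12 groups). The deposited table holds raw counts per gene, made by the authors with Trim Galore, STAR and featureCounts on Rnor6.0, with the strand setting not given in the sources used here. The deposited normalized counts, a signal value per gene, equal the raw counts over a size factor per library (0.639 to 1.571), and the submitters' processing notes name DESeq2 1.28.1. Its FPKM values were made by the authors from those normalized counts. Depth was 6675287 to 19665439 counts per library, so 1 count weighs most in Ccl20, Ccl3 and Ccl27.

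Here, raw counts were tested with edgeR 4.0.16 in R 4.3.3 (1 quasi-likelihood fit over 12 groups, TMM, filterByExpr, 11954 of 17337 genes, adjusted p under 0.05) for 15 comparisons. Normalized counts in the text are raw counts over the TMM effective library size times its mean. The alternatives were DESeq2 1.42.0, RLE size factors, no filter on low counts and sex as a covariate. Others were a fit on the groups compared, blocks, and leaving out animals. The study's criteria (absolute log2 fold change over 1, p at most 0.01, mean over 50) were applied to the edgeR values. RV and LV come from the same animal: deviations from the group means correlated at a median of 0.186 to 0.297 within an animal and -0.0686 to -0.0142 between animals. The scripts were tested on simulated data.

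The 10 members, the gene lists and the motifs were chosen with earlier results of these data known. Named from the lists are genes called in LV AOB-F, at most 6 per list by p, and the members' receptors, of which 1 is not reported here; genes called in RV PAB-F were added after their values were seen. Most alike means the highest Pearson r of log2 CPM over group means. Replicates are separate animals.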

Additional observations from a re-analysis of the deposited data

Results flagged for a closer look

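Dixon's test was run on log2 CPM for each of the 10 chemokines in each of the 12 groups, and 7 of these 120 sets held a library far from the others, where chance flags about 1 in 20. A count of 7 of 120 lies near that share, so the libraries below are given as a description. AOB-F animals 6 and 7 were not among them, since a pair of high libraries escapes a test of 1. Cxcl12 read 12837 in LV AOB-H animal 6 against 3125 to 4376 in the other 5, and 4585 in its RV against 1616 to 1886, so that both ventricles of this animal were set apart. Its endothelial markers took 0.529% of counts in the LV and 0.258% in the RV, the highest of their groups, and their part was not tested. Cx3cl1 read 985.0 in LV Sham-H animal 4 against 395.0 to 570.4. Cxcl1 read 410.0 in LV PAB-H animal 5 against 91.9 to 156.3. Low libraries were Ccl7 in RV Sham-H animal 1 (18.03 against 55.6 to 115.3), Cxcl2 in RV Sham-F animal 8 (11.5 against 33.4 to 63.7) and Ccl27 in LV AOB-H animal 1 (7.99 against 9.56 to 10.6).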

How the results depend on the processing

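The 7 chemokines called in LV AOB-F became 0 without AOB-F animals 6 and 7. The count was also 0 when only the groups compared were in the fit (15 genes called in all). With the replicate number as a block it was 0 as well (1 gene called in all). DESeq2, RLE size factors and sex as a covariate each gave the same 7 (6 with no filter on low counts, without Ccl3). The study's criteria, applied to the edgeR values, picked the same 7. Leaving out 1 animal gave 2 to 8, and it was 2 without animal 7 (Ccl2 and Ccl7) and 5 without animal 6. For the other counts leaving out 1 animal gave 1 to 4 in LV Sham-F against LV Sham-H, 3 to 4 in RV against LV Sham-F, 1 to 2 in RV against LV Sham-H (1 without Sham-H animal 4) and 0 to 1 for the LV AOB-F response minus the RV PAB-F response. The study's criteria gave 1 in RV AOB-F (Ccl7), 2 in RV against LV Sham-F, 0 in RV against LV Sham-H and 0 in LV Sham-F against LV Sham-H. The last comparison gave 2 with only its groups in the fit and 2 with sex as a covariate, and RV PAB-H gave 2 with only its groups and 1 with the replicate number block. Without AOB-F animals 6 and 7 the log2 fold change turned to -0.43 for Ccl27 in LV AOB-F, and to -0.12 for Ccl27 and -0.13 for Ccl3 in RV AOB-F. Cxcl12 in RV AOB-F turned to -0.0737 with the block and lay between -0.022 and 0.194 with 1 animal left out, below 0 without animal 3 or 5. The causes were not tested. Replicate numbers across conditions name different animals, whose deviations did not all correlate (medians from -0.08 to 0.16), so that block pairs nothing; the animal block in the ventricle comparisons changed no other call than those in the report.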

Other observations

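Of 16 other chemokine ligands tested between the ventricles of healthy Sham-F hearts, 8 were lower and 2 higher in the RV by edgeR's quasi-likelihood test with Benjamini-Hochberg adjustment, a smaller share than the 74.3% of all genes called there, so that the count says nothing particular about chemokines. Cxcl11, a ligand of Cxcr3, was higher in the RV (means 380.3 and 147.5 normalized counts, log2 fold change 1.37 ± 0.26, adjusted p = 2.61e-06). Cxcl16, a ligand of Cxcr6, was lower there (58.6 and 218.7, -1.89 ± 0.27, adjusted p = 4.71e-09), as were Ccl6 (11.2 and 33.2, -1.55 ± 0.37, adjusted p = 0.000156) and Ackr2, a receptor that takes up inflammatory CC chemokines (4.73 and 21.3, -2.12 ± 0.49, adjusted p = 7.89e-05). In RV PAB-F, Ackr2 rose from a mean of 4.73 to 20.2 (2.02 ± 0.53, adjusted p = 0.00753) and Il1b, a cytokine that induces chemokines, from 48.7 to 137.1 (1.47 ± 0.47, adjusted p = 0.0304). These genes were picked after their values were seen.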
